A study of Mus musculus with 4 samples.

Results

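The genes described here encode the Myc, Max and Mxd network of transcription factors, picked by gene symbol. Of 10 listed genes (Myc, Mycn, Mycl, Max, Mxd1, Mxd3, Mxd4, Mxi1, Mnt and Mlx), 9 had a transcript cluster annotated with that single symbol, each with 1 cluster, among 16658 clusters on the arrays. Mxi1 was not analysed here. The cells were C2C12, a mouse myoblast line that stops dividing and fuses into muscle fibres once serum is withdrawn. In the differentiation group (2 arrays) cells had reached confluence, were switched to 2% horse serum and were collected after 24 h. In the growth group (2 arrays) cells had 10% fetal bovine serum and were harvested at 60 to 70% confluency. Serum, cell density and differentiation differed together and cannot be told apart here. The study asked how mRNA 3' ends and gene expression change as myoblasts differentiate. The design text names them biological replicates without describing the cultures, so p-values measure only the spread between these arrays.

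Proteins of this network carry a basic helix-loop-helix leucine zipper and bind DNA as dimers. Max is the shared partner: with Myc, Mycn or Mycl it binds the E-box CACGTG and activates genes of growth, ribosome production and nucleotide synthesis, while with Mxd proteins or Mnt it binds the same sites and recruits Sin3 corepressors. Mlx is a relative of Max that pairs with the glucose-responsive factors MondoA (Mlxip) and ChREBP (Mlxipl) and also with some Mxd proteins. In many lineages Myc gives way to Mxd proteins when cells stop dividing, and Myc held high blocks myogenic differentiation.

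The E-box was looked for in the promoters of the genes themselves, because the network is known to act on genes that hold it. Promoter windows of RefSeq (build GRCm38.p6, 250 bases before to 50 after a gene's start) were found for 8 of the 9 measured genes, Myc being the other. CACGTG, which reads the same on both strands, was present in 4 of the 8, against 7.15% of all 32851 windows in the table. No other motif was searched. The matches are shown with the motif in capitals, on the strand of the gene, for the 4 network genes and for Dnph1, Nme1 and Cdk4, Myc-induced genes whose values appear further on.
Max, chr12:76962234-76962263, minus strand: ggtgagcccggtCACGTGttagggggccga
Mxd4, chr5:34187912-34187941, minus strand: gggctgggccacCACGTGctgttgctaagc
Mnt, chr11:74830789-74830818, plus strand: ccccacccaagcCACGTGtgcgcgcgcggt
Mlx, chr11:101087238-101087267, plus strand: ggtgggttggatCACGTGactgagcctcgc
Dnph1, chr17:46496760-46496789, plus strand: gctttcccaggtCACGTGgtagcggcggca
Nme1, chr11:93968273-93968302, minus strand: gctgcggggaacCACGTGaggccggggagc
Nme1, chr11:93968037-93968066, minus strand: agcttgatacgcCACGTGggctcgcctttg
Cdk4, chr10:127063351-127063380, plus strand: atggcagccagtCACGTGccacacagcgta
Cdk4, chr10:127063405-127063434, plus strand: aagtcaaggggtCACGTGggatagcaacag
Cdk4, chr10:127063425-127063454, plus strand: atagcaacaggtCACGTGgccgtcagggcc
Cdk4, chr10:127063512-127063541, plus strand: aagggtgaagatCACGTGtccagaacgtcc
Of the 4 network genes with the motif, Mxd4 and Mnt were higher in differentiation, and Max and Mlx did not pass the test. Mycl, Mycn, Mxd1 and Mxd3 had no CACGTG in theirs.

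Between the conditions 5 of the 9 network genes changed. Mycl, Mxd4 and Mnt rose and Myc and Mxd3 fell in differentiation (limma, Benjamini-Hochberg adjustment over all 16658 clusters, adjusted p under 0.05). Those that rose were thus 33.3% of the members, beside 8.64% of all clusters called higher. Those that fell were 22.2%, beside 7.52% of all clusters called lower. The members were chosen with earlier results of these data known, so these shares describe them and are not a test. For 7 of the 9 no array of one condition fell within the range of the other, which was also so for 60.8% of all clusters. Each change is the mean log2(intensity + 16) of the differentiation arrays less that of the growth arrays, given with its limma standard error (SE), and the offset of 16 makes the change of dim genes smaller. In these bulk samples fewer cells expressing a gene and less RNA per cell cannot be told apart.

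**Figure D1:**
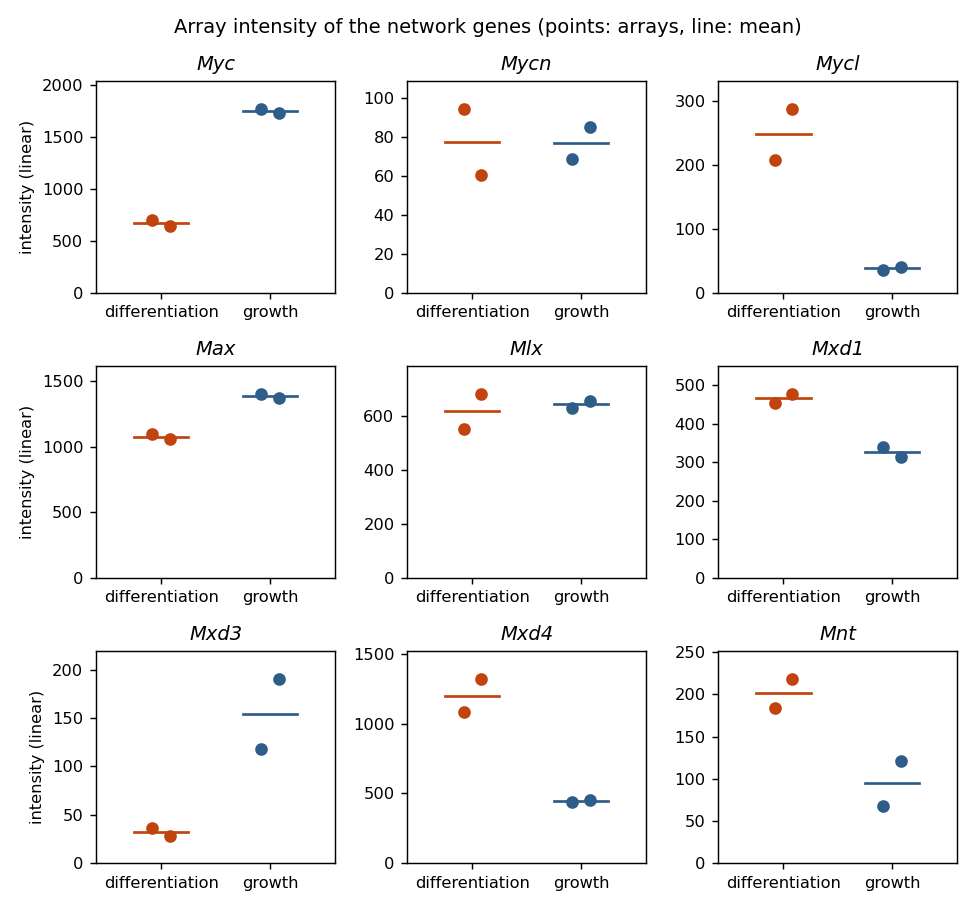
Linear array intensity (vertical axis, from 0, on a scale of its own for each gene) of the 9 network genes on the differentiation arrays (orange, left) and the growth arrays (blue, right), with points for arrays and a line for the mean of 2 arrays. Myc and Mxd3 were lower and Mycl, Mxd4 and Mnt higher in differentiation, and the groups overlapped for Mycn and Mlx.

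Among the Myc proteins the members went opposite ways. Myc (cluster 6830927) had intensities of 694 and 637 on the differentiation arrays, against 1769 and 1722 on the growth arrays. Both differentiation arrays lay far below both growth arrays, and arrays of the same condition were close to each other. The log2 change was -1.37 ± 0.18 SE (limma adjusted p = 0.0022), placing Myc as the 360th lowest of all 16658 changes. It passed under each of the 10 alternative settings (adjusted p at most 0.0389), including with any 1 array left out. Myc was still measured at 666 ± 40.3 after 24 h, compared with 1745 ± 33.0 in growth (mean ± SD, n = 2 each).

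Mycl (cluster 6916937) encodes L-Myc, a family member with a weaker transforming activity. Its intensities were 208 and 288 in differentiation, against 35.1 and 40.6 in growth. The groups were well apart. The growth arrays were dim, and without a detection call such values cannot be told from background, so the size of the change is uncertain. It was 2.28 ± 0.21 SE (limma adjusted p = 0.000413) and 2.67 with an offset of 1 in place of 16, and across the 10 alternatives the adjusted p was at most 0.0153. Mycn (cluster 6799054), the N-Myc gene best known from embryonic tissues, had 94.7 and 60.3 in differentiation, against 68.9 and 85.4 in growth. Its groups overlapped and the change was -0.01 ± 0.23 SE (adjusted p = 0.973), with a 95% interval of -0.55 to 0.52. Mycn was dim in both conditions, at percentile 32.1 of mean intensity over all clusters, where the offset of 16 makes changes smaller. With an offset of 1 its change was -0.02.

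The shared partners Max and Mlx did not pass the test. Max (cluster 6801929) had intensities of 1099 and 1060 in differentiation, against 1406 and 1370 in growth. Both differentiation arrays were below both growth arrays, by a small step. The change was -0.36 ± 0.18 SE and did not pass (limma adjusted p = 0.2), with a 95% interval of -0.76 to 0.05. It passed in 1 of the 10 alternatives, when the variance prior followed intensity (adjusted p = 0.0489). Mlx (cluster 6784241) had 551 and 681 in differentiation, against 629 and 653 in growth. Its groups overlapped, and the change was -0.06 ± 0.19 SE (adjusted p = 0.837; 95% interval -0.51 to 0.38).

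Of the antagonists, Mxd4 and Mnt rose, Mxd3 fell and Mxd1 did not pass. Mxd4 (cluster 6937288), a Max partner that recruits Sin3, had intensities of 1083 and 1324 in differentiation, against 438 and 454 in growth. Both differentiation arrays were higher, and they differed more from each other than the growth arrays did. The log2 change was 1.39 ± 0.19 SE (limma adjusted p = 0.00274), the 205th highest, and it passed in each of the 10 alternatives (adjusted p at most 0.0437). Mxd1 (cluster 6955219), the first described Mad protein, had 454 and 477 in differentiation, against 340 and 313 in growth. Its groups were apart, but the change of 0.49 ± 0.18 SE did not pass (adjusted p = 0.0978). The 95% interval of 0.08 to 0.91, which is not adjusted for the number of clusters, lay above 0. With an intensity trend in the prior its adjusted p was 0.0472, the only alternative of the 10 in which it passed.

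Mxd3 (cluster 6813386), known as the Mxd member expressed in S phase of proliferating cells, went the other way from Mxd4. Its intensities were 36.1 and 27.4 in differentiation, against 118 and 190 in growth. The differentiation arrays were dim, at values that cannot be told from background, and the growth arrays were spread. The size of the fall is therefore uncertain: the log2 change was -1.81 ± 0.24 SE (limma adjusted p = 0.00263), and -2.22 with an offset of 1. Without differentiation replicate 2 the change was -1.67 and no longer passed (adjusted p = 0.0506), and it passed in the other 9 alternatives.

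Mnt (cluster 6782405), a widely expressed Max-binding repressor that can also pair with Mlx, had intensities of 184 and 218 in differentiation, against 68.0 and 122 in growth. The groups did not overlap. On the log2 scale tested, however, the growth arrays lay further from each other than the second lay from the lower differentiation array. The change was 1.01 ± 0.26 SE (limma adjusted p = 0.0351). The call was lost with an offset of 1 (adjusted p = 0.119) and without differentiation replicate 1 (0.125), differentiation replicate 2 (0.197) or growth replicate 1 (0.151). The change was 0.65 without growth replicate 1 and 1.37 without growth replicate 2 (adjusted p = 0.0121), so its size depended on which growth array was kept.

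**Figure D2:**
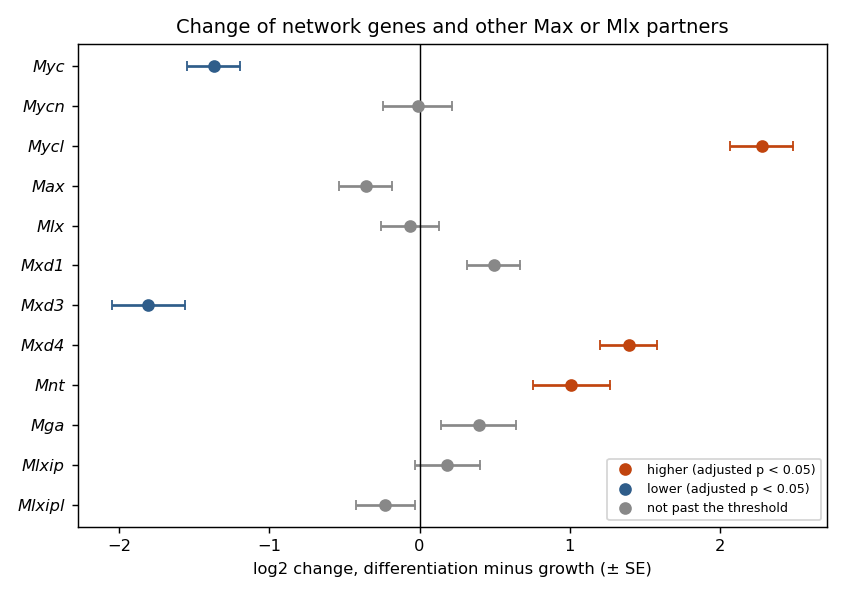
Log2 change, differentiation minus growth, with the limma standard error as bars, for the 9 network genes and for Mga, Mlxip and Mlxipl, from a fit to 2 differentiation and 2 growth arrays. Orange genes were higher and blue genes lower at an adjusted p under 0.05, and grey genes did not pass. The sizes for Mycl (2.28) and Mxd3 (-1.81) depend on the offset, since one condition of each was dim.

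Because Myc and its antagonists share Max, their signals were also set against Myc on each array. Levels of different clusters cannot be compared, so these differences show only how unequally the genes changed, and no test was made of them. Because Myc itself fell, a gene with no change of its own shifts upward by 1.37 on this scale, and Mycn and Mlx, which did not pass, shifted by 1.36 and 1.31. For Mxd4 minus Myc the differences in log2(intensity + 16) were 0.63 and 1.04 on the differentiation arrays, against -1.97 and -1.89 on the growth arrays. For Mnt minus Myc they were -1.83 and -1.48 in differentiation, against -4.41 and -3.66 in growth. For Mxd1 minus Myc they were -0.60 and -0.41 in differentiation, against -2.33 and -2.40 in growth. The shifts were 2.76 for Mxd4, 2.38 for Mnt and 1.86 for Mxd1, to be read against that 1.37. Mxd3 minus Myc was -3.77 and -3.91 in differentiation, against -3.74 and -3.07 in growth, since both genes fell. Max minus Myc was 0.65 and 0.72 in differentiation, against -0.33 on both growth arrays. Max thus shifted by 1.01, Mxd3 by -0.44 and Mycl by 3.65.

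**Figure D3:**
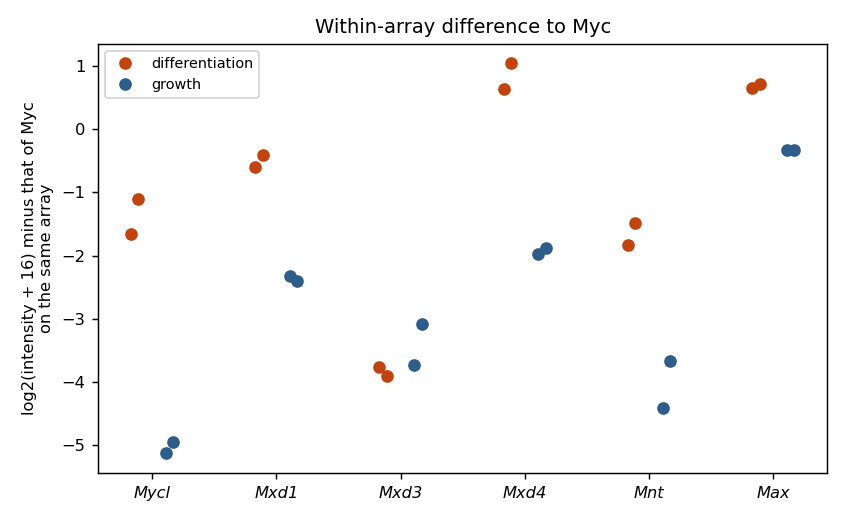
Difference between log2(intensity + 16) of a gene and that of Myc on the same array (vertical axis) for 6 network genes, with points for the 2 differentiation arrays (orange, left) and the 2 growth arrays (blue, right). Only shifts between conditions can be read, since zero has no meaning between clusters. The differentiation arrays lie above the growth arrays for Mycl, Mxd1, Mxd4, Mnt and Max, and slightly below them for Mxd3. A gene that did not change would shift upward by 1.37, the fall of Myc.

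The remaining known partners of Max and Mlx, 3 genes, did not pass the test (limma; 0 also at an unadjusted p under 0.05). Mga, a large Max-binding protein with a T-box, had 366 and 249 in differentiation, against 190 and 268 in growth (0.39 ± 0.25 SE; limma adjusted p = 0.303). Mlxip had 172 and 248 in differentiation, against 177 and 183 in growth (0.19 ± 0.21; adjusted p = 0.574). Mlxipl had 220 and 237 in differentiation, against 308 and 237 in growth (-0.23 ± 0.20; adjusted p = 0.455). Of 5 genes known to respond to MondoA or ChREBP, 2 rose and none fell (limma; 1 was lower at an unadjusted p under 0.05), beside 8.79% higher and 7.77% lower over all named genes. Txnip, an inhibitor of glucose uptake and the best known MondoA target, had 1977 and 2250 in differentiation, against 782 and 806 in growth. Its change was 1.39 ± 0.18 SE (limma adjusted p = 0.00222), and it passed with any 1 array left out. The lipolysis inhibitor gene G0s2 had 493 and 585 in differentiation, against 221 and 233 in growth (1.19 ± 0.19; adjusted p = 0.00519), and did not pass without differentiation replicate 2 (1.07; adjusted p = 0.0654). Klf10 (-0.55 ± 0.18; adjusted p = 0.0775), Pklr (-0.44 ± 0.22; adjusted p = 0.214) and Arrdc4 (0.09 ± 0.18; adjusted p = 0.767) did not pass. Klf10 did so with the lowest 25% of clusters left out and with an intensity trend in the prior (adjusted p = 0.0415 and 0.0413).

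Of 9 other bHLH zipper factors that bind E-boxes, 2 rose and 1 fell, beside 8.79% higher and 7.77% lower over all 14806 named genes, with a median change of 0.37, beside -0.01 over those genes. With an offset of 1 none passed (adjusted p = 0.0953, 0.0804 and 0.074 for Usf1, Mitf and Tfap4). In that setting 3.17% of all clusters were higher and 3.73% lower. With an intensity trend in the prior 4 were higher, beside 14.5% of all clusters. Usf1, a ubiquitous E-box activator, had 558 and 560 in differentiation, against 290 and 367 in growth (0.75 ± 0.19 SE; limma adjusted p = 0.0369). Mitf, known from pigment cells and lysosome regulation, had 186 and 203 in differentiation, against 120 and 108 in growth (0.69 ± 0.18; adjusted p = 0.0382). Tfap4, which is known as a direct Myc target, had 214 and 215 in differentiation, against 360 and 356 in growth (-0.70 ± 0.18; adjusted p = 0.0333). None of these calls held throughout when arrays were left out singly. The adjusted p was then 0.0409 to 0.174 for Usf1, which passed only without growth replicate 2, 0.0928 to 0.177 for Mitf and 0.0793 to 0.144 for Tfap4. With the replicate number as a block Mitf had an adjusted p of 0.0516.

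Of the genes listed for the Sin3 and NCoR corepressors, 15 were measured and none passed the test in either direction. Over all named genes 8.79% were higher and 7.77% lower, so a count of 0 among 15 genes lies near those shares. Ncor1 and Hdac1 were on the list but were not analysed here, so the count does not cover NCoR itself. Changes ran from -0.48 to 0.49 with a median of -0.03 (limma, with 0 higher and 2 lower at an unadjusted p under 0.05). With an intensity trend in the prior 2 were called lower, beside 11.7% of all clusters in that setting. Of 14 measured genes listed as Myc coactivators or binding partners, 2 fell and none rose (limma). At an unadjusted p under 0.05, 5 were higher and 4 lower. Over all named genes 7.77% were called lower, and the median of the list was 0.23. With an intensity trend 4 were higher and 4 lower, beside 14.5% and 11.7% of all clusters. With an offset of 1 none passed (adjusted p = 0.0649 for Kat2a and 0.0873 for Ruvbl2), beside 3.17% of all clusters higher and 3.73% lower. The genes that fell were the acetyltransferase gene Kat2a, with 602 and 647 in differentiation, against 1147 and 1072 in growth (-0.81 ± 0.18 SE; adjusted p = 0.0204), and the ATPase gene Ruvbl2, with 690 and 950 in differentiation, against 1488 and 1627 in growth (-0.93 ± 0.21; adjusted p = 0.0233). When arrays were left out singly, Kat2a passed only without growth replicate 2 (adjusted p = 0.0496 to 0.116 over the 4 arrays) and Ruvbl2 never did (0.0547 to 0.137).

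Among 14 regulators of Myc protein turnover and activity, 3 fell and 1 rose, which is 21.4% lower and 7.14% higher, beside 7.77% and 8.79% over all named genes, with a median of 0.21. With an intensity trend 4 were lower and 3 higher, beside 11.7% and 14.5% of all clusters. With an offset of 1 the numbers were 2 and 0, beside 3.73% and 3.17% of all clusters. The calls of Set (adjusted p = 0.0632) and Pim1 (0.0836) were then lost. Cip2a, an inhibitor of the phosphatase PP2A that protects Myc from degradation, had intensities of 388 and 348 in differentiation, against 2013 and 2333 in growth. It had the largest change of this list, -2.51 ± 0.19 SE (limma adjusted p = 0.000187). Skp2, the F-box subunit of a ubiquitin ligase that acts on Myc and on p27, had 485 and 425 in differentiation, against 1198 and 1120 in growth (-1.32 ± 0.18; adjusted p = 0.00291). Both genes are also known to be tied to the cell cycle, and both passed with any 1 array left out. Set, another PP2A inhibitor, had 332 and 395 in differentiation, against 664 and 741 in growth (-0.92 ± 0.19; adjusted p = 0.0158), and Pim1, a kinase that phosphorylates Myc, had 990 and 1098 in differentiation, against 626 and 638 in growth (0.71 ± 0.18; adjusted p = 0.0342). Set passed only without growth replicate 1 when arrays were left out singly (adjusted p = 0.0458 to 0.109), and Pim1 never did (0.0792 to 0.171). Fbxw7, the F-box protein best known for Myc degradation, had a change of 0.17 ± 0.19 (adjusted p = 0.553) and was picked for mention after its value was seen.

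Genes known to be induced by Myc were mostly lower, on a list chosen with earlier results of these data known. Of 27 measured (15 others on the list were not analysed here), 16 fell and none rose (limma; 0 were higher at an unadjusted p under 0.05), with a median change of -0.83, beside a median of -0.01 and 7.77% lower over all named genes. Dnph1, a nucleotide hydrolase gene known as a Myc-responsive transcript, had 216 and 248 in differentiation, against 1082 and 1121 in growth (-2.18 ± 0.18 SE; limma adjusted p = 0.000292). The folate enzyme gene Shmt1 had 136 and 108 in differentiation, against 542 and 558 in growth (-2.04 ± 0.19). Srm, the spermidine synthase gene, had 974 and 991 in differentiation, against 2899 and 3137 in growth (-1.60 ± 0.18). In each of these the groups were far apart and the replicates close. The others with the lowest adjusted p were the phosphatase gene Cdc25a (-1.59 ± 0.18), the snoRNP gene Nop56 (-1.49 ± 0.18) and the pyrimidine synthesis gene Cad (-1.29 ± 0.18). All 6 passed with any 1 array left out, with adjusted p at most 0.0483. The list holds genes of nucleotide synthesis and of the cell cycle, such as Cdc25a, which other factors also regulate, and the part of Myc in these changes was not tested. With any 1 array left out the median of the list was -0.88 to -0.82. Fewer of its genes then passed, which was also so over all clusters.

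The E-box stood in promoters of induced genes both with and without a call. Of the induced genes that fell and had a window, 2 of 14 held CACGTG (Dnph1 and Nme1). So did 3 of 8 of those that did not pass (Cdk4, Eif4e and Apex1). The share over all genes with a window was 8.09%, and no difference between these sets was tested. Nme1, a nucleoside diphosphate kinase gene, had 1822 and 2207 in differentiation, against 3984 and 4242 in growth (-1.03 ± 0.19 SE; limma adjusted p = 0.0103). The Cdk4 signal, that of a G1 kinase, was 4704 and 4746 in differentiation, against 4611 and 5332 in growth (-0.07 ± 0.18; adjusted p = 0.816). Apex1 had 2967 and 2647 in differentiation, against 3882 and 4054 in growth (-0.50 ± 0.18; adjusted p = 0.0981), and its groups did not overlap. Eif4e was dim, with 60.3 and 108 in differentiation, against 83.1 and 120 in growth (-0.26 ± 0.27; adjusted p = 0.54). These genes were named for their promoters after their values were seen.

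Some genes known to be repressed by Myc were higher, again on a list chosen with earlier results of these data known. Of 15 measured, 6 rose and none fell (limma; 0 were lower at an unadjusted p under 0.05), with a median change of 0.51, beside 8.79% higher over all named genes. Cdkn1c, the p57 inhibitor of cyclin-dependent kinases, had 194 and 189 in differentiation, against 43.1 and 59.0 in growth (1.64 ± 0.20 SE, limma adjusted p = 0.00154). Its growth arrays were dim, so the size of this change is uncertain, and with an offset of 1 it was 1.90. The growth-arrest genes Gadd45a, with 3543 and 4046 in differentiation, against 1459 and 1775 in growth (1.23 ± 0.19; adjusted p = 0.00547), and Gas1, with 2383 and 2710 in differentiation, against 1115 and 1187 in growth (1.13 ± 0.18; adjusted p = 0.00582), were also higher. Ndrg1 (0.81 ± 0.19; adjusted p = 0.0236), Ndrg2 (0.72 ± 0.19; adjusted p = 0.038) and Cdkn1a, the p21 gene (0.80 ± 0.18; adjusted p = 0.0216), completed the count. Cdkn1c alone of the 6 passed with any 1 array left out. Gadd45a and Gas1 lost their calls without differentiation replicate 2 (adjusted p = 0.0698 and 0.0695). Ndrg1 and Ndrg2 lost theirs without any 1 of the 4 arrays (adjusted p = 0.0701 to 0.135 and 0.0537 to 0.182), and Cdkn1a passed only without growth replicate 2 (0.0494 to 0.122). The count was 3 with an offset of 1, beside 3.17% of all clusters called higher in that setting. With any 1 array left out the median of the list was 0.46 to 0.51. Fewer of its genes then passed, which was also so over all clusters. The part of Myc in the changes of these genes was not tested, and serum, cell density and differentiation differed together. None of the 10 genes of this list with a promoter window held CACGTG. Over all genes with a window the share was 8.09%, so 0 of 10 lies near it.

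**Figure D4:**
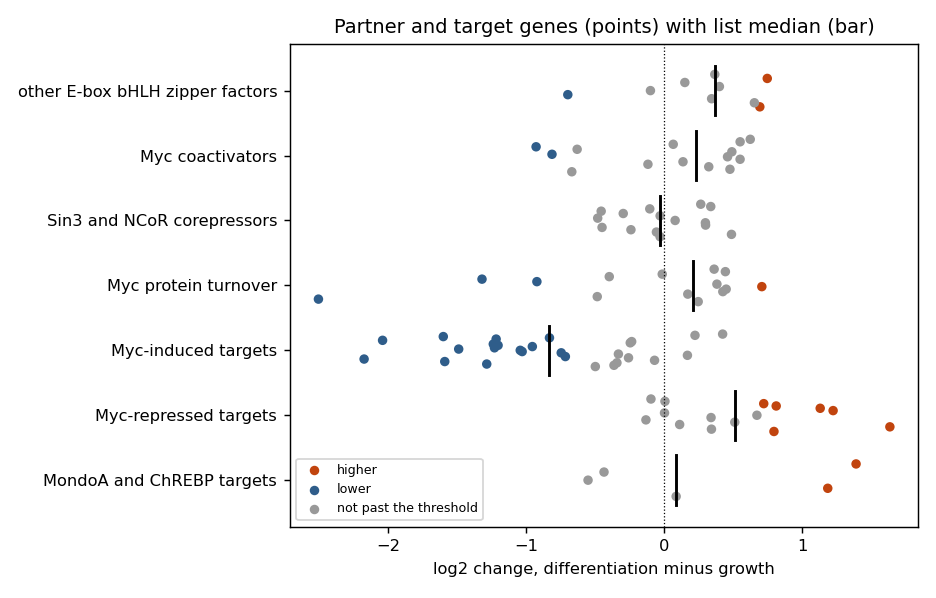
Log2 change, differentiation minus growth (horizontal axis), of each measured gene of 7 lists of partners and targets (points, spread vertically for legibility), with the list's median as a black bar. Orange points were higher and blue points lower at an adjusted p under 0.05. The median of the Myc-induced genes was -0.83 and that of the Myc-repressed genes 0.51.

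The genes whose centred log2 values over the 4 arrays lay closest to those of Mycl were the pyruvate dehydrogenase kinase gene Pdk1 (Euclidean distance 0.07), Fam43a (0.24) and C1qtnf1 (0.24). Closest to Mxd3 were the nuclear pore gene Nup43 (0.07), the RNA exosome gene Exosc8 (0.18) and the potassium channel gene Kcnn4 (0.23). With 4 arrays in 2 conditions, likeness rests mainly on the size of the change between conditions.

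Marker genes were read as a check of the labelled cells. Their calls are to be read beside 8.79% higher and 7.77% lower over all named genes. The 6 skeletal myoblast markers had summed intensities of 13140 and 13420 in differentiation, against 8007 and 8261 in growth, and 3 of them rose (Myod1, Cdh15 and Myog) and none fell (limma; 0 were lower at an unadjusted p under 0.05). Myog, a gene switched on when myoblasts commit to differentiate, changed by 1.38 ± 0.18 SE (limma adjusted p = 0.00237). Osteoblast markers (3 measured) summed to 131 and 138 in differentiation, against 132 and 111 in growth, and none passed (1 was higher at an unadjusted p under 0.05). Adipocyte markers (4 measured) summed to 529 and 452 in differentiation, against 872 and 841 in growth, and Pparg and Fabp4 fell. The leukocyte markers Ptprc and Cd68 summed to 84.2 and 78.1 in differentiation, against 188 and 144 in growth, and both were called lower. Ptprc alone had 5.67 and 4.87 in differentiation, against 28.25 and 21.4 in growth, values that cannot be told from background. Its change was -0.94, and -2.03 with an offset of 1, so its size is uncertain. Of these marker calls Myog alone held with any 1 array left out. Myod1, Cdh15, Ptprc and Cd68 then passed only without growth replicate 2 (adjusted p = 0.0394, 0.0398, 0.0265 and 0.0387), Pparg when the array omitted was either growth array (0.0311 and 0.0362), not a differentiation array, and Fabp4 never (0.0615 to 0.234). Fabp4, at 25.9 and 12.5 in differentiation, against 46.5 and 41.9 in growth, also lost its call after median centring (0.0523) and with an offset of 1 (0.124). No marker was listed at 0, and the part of such transcripts in the changes of the network genes was not tested. Median intensities were 170 to 174.1 on the differentiation arrays and 167.8 to 177.2 on the growth arrays.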

How the data were processed

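Per the submitters' processing notes, the authors used PLIER and the mouse build mm9, and their deposited table gives a linear intensity for each transcript cluster on each array. The sources used here do not give the PLIER version, background correction or scaling between arrays, and there is no detection call. Precision is limited by having 2 arrays a group. Clusters took their names from the platform annotation, and 14883 of the 14938 with 1 symbol matched a RefSeq gene table by Entrez identifier. The brightest cluster stood for a list gene with several (14806 genes).

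Values were taken to log2(intensity + 16), unnormalized, and the groups compared with limma 3.58.1 under R 4.3.3 (a linear model with empirical Bayes variances, two-sided, no covariate). P-values were adjusted by Benjamini-Hochberg over the 16658 clusters, with calls at 0.05. The procedure was tested on simulated data. The members and the gene lists were chosen with earlier results of these data known. Genes named were all members, up to 6 called genes per list by adjusted p, all genes of lists of 5 or fewer, all markers, and the 3 nearest patterns of the member with the largest rise and of that with the largest fall. Alternatives were quantile normalization, centring on array medians, an offset of 1, a filter removing the dimmest 25% of clusters, an intensity trend in the prior, the replicate number as a block, omission of each array in turn and, for lists, the mean over a gene's clusters.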

Additional observations from a re-analysis of the deposited data

How the results depend on the processing

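Across the 10 alternatives the number of network genes higher in differentiation was 2 to 4, against 3 in the reported analysis, and the number lower was 1 to 3, against 2. With an array left out these were 2 to 3 and 1 to 2. Myc, Mycl and Mxd4 passed in every one of the 10, Mxd3 in 9 and Mnt in 6. Myc-induced genes lower were 9 to 13 with an array left out, against 16, and Myc-repressed genes higher were 1 to 4, against 6, and 3 with an offset of 1. Their medians were -0.88 to -0.82 and 0.46 to 0.53 over all alternatives. Changes that did not pass also changed sign: Mycn was 0.028 after quantile normalization and -0.281 to 0.255 with an array left out, Mlx was then -0.213 to 0.084, Mlxip -0.058 to 0.429, Arrdc4 -0.024 to 0.198 and Sp7 -0.408 to 0.077. The cause was not tested, beyond that fewer arrays enter these fits. The lone array then left in a group is assumed to vary as those of the other group do. Over all clusters 1439 were higher and 1252 lower, against 528 and 622 with an offset of 1, 1950 and 1600 without the dimmest 25% of clusters and 2415 and 1947 with an intensity trend. Leaving arrays out singly gave 305 to 1189 and 446 to 839. The labels give replicate numbers but no shared batch, and deviations of same-numbered arrays correlated at -0.037. With the replicate block 3 network genes were higher and 2 lower, 16 Myc-induced genes were lower and 6 Myc-repressed genes higher, and of the genes named Mitf alone lost its call. Dim signals, such as Mxd3 in differentiation and Mycl in growth, cannot be told from background.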
